A study of Mus musculus with 2 samples.

Results

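The enzymes that make and guard the pool of DNA precursors were read from total RNA-seq of mouse bone marrow cells labelled megakaryocyte progenitor (CFU-Meg, the colony-forming progenitor of the platelet-making megakaryocyte). The set holds 9 genes: the ribonucleotide reductase subunits Rrm1, Rrm2 and Rrm2b, the thymidylate enzymes Tyms and Shmt1, the salvage kinases Tk1 and Dck, and the hydrolases Dut and Dctpp1. They were chosen by name, and all 9 were found among the 43346 Ensembl genes of the deposited gene tables and the 21461 protein-coding nuclear genes. The study holds 2 libraries in 1 group and no contrast. Both were made from primary cells of adult male C57BL/6J mice aged 5 to 6 weeks, with 1 ng of RNA as input and no treatment or altered allele in the labels. Both biosamples carry 1 donor identifier, so the spread between the libraries may be technical and need not be the spread between animals. Levels are TPM, the deposited measure of transcript abundance that is already divided by length and scaled to the library, and are given as the mean ± SD of the 2 libraries. Positions are on GRCm38, the assembly of mm10.

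A dividing cell has to supply 4 deoxynucleoside triphosphates in balance. Ribonucleotide reductase, a complex of a large catalytic subunit and a small radical-bearing subunit, reduces ribonucleotides to deoxyribonucleotides. Thymidylate synthase then methylates dUMP to dTMP with a folate cofactor, while salvage kinases phosphorylate deoxynucleosides taken from outside or from DNA breakdown. In blood progenitors this supply can limit the pace of S phase, and drugs such as hydroxyurea and 5-fluorouracil lower blood counts through it.

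The libraries held 82746658 and 75652762 expected counts (estimated reads per gene), so that 1 TPM was worth between 31.2 reads (Dctpp1, replicate 2) and 244 reads (Rrm2b, replicate 1) for these genes. The label was checked against markers. Of 13 megakaryocyte markers, 2 reached 1 TPM in both libraries, their sum was 12.0 and 7.32 TPM, and Gp6 and Tubb1 were listed at 0 in both. All 9 granulocyte and monocyte markers reached 1 TPM in both, with sums of 16590 and 15580 TPM led by Mpo. Of 9 erythroid markers 7 did (sums 598 and 331, of which Car1 made 512 and 242, while Hbb-bs with 6.87 and 18.4 and Hba-a1 with 5.76 and 12.0 were higher in replicate 2), and so did 4 of 7 stem cell markers (164 and 139). The lymphoid list had 1 of 6 (Ighm; sums 105 and 102; Cd3e at 0) and the stroma and endothelium list 1 of 5 (Pecam1; sums 24.3 and 25.1; Cdh5, Col1a1 and Col3a1 at 0). The defining megakaryocyte markers were thus at or near 0, and the levels below are those of the pooled RNA of the cells labelled CFU-Meg. In such bulk RNA fewer cells of a type and less RNA per cell cannot be told apart, and the part of each cell type in the levels was not tested.

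All 9 genes reached 1 TPM in both libraries, as did 46.2% of protein-coding nuclear genes. Their median level was 66.2 TPM, beside 0.585 TPM over all 21461 protein-coding nuclear genes and 11.5 TPM over the 9911 of them that reached 1 TPM in both. The levels ran from 138 TPM for Dut to 2.74 TPM for Rrm2b. Only Rrm2b lay under 15 TPM.

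**Figure D1:**
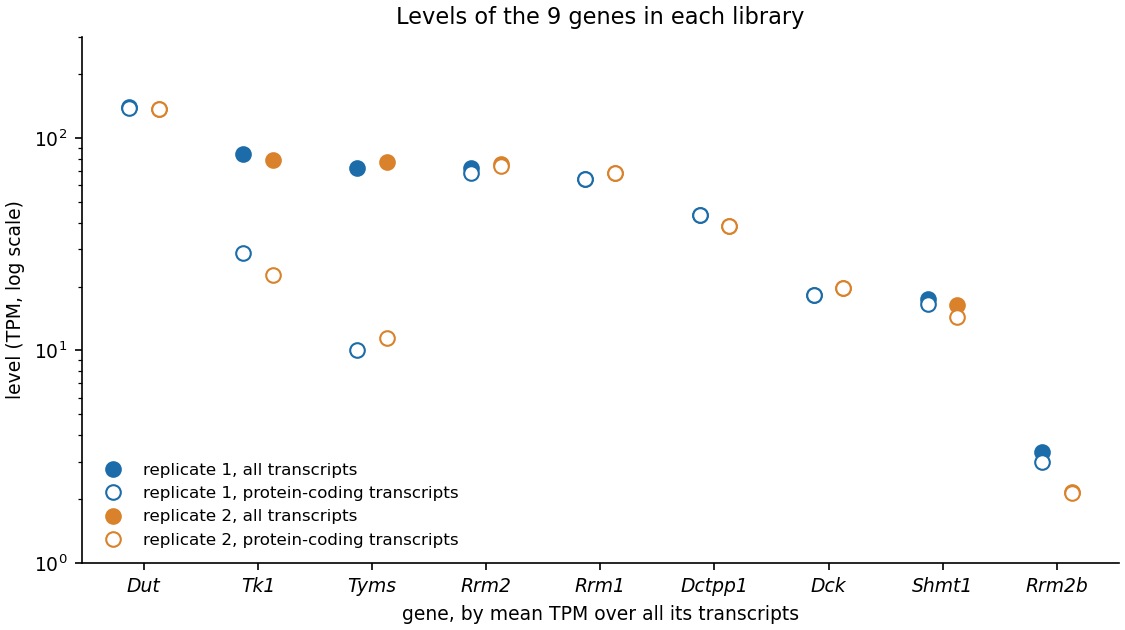
Level of each gene in TPM on a log axis, in replicate 1 (blue) and replicate 2 (orange). Filled points sum all transcripts of the gene and open points its protein-coding transcripts alone. Filled and open points lie close together for 7 genes and far apart for Tk1 and Tyms, whose open points average 25.8 and 10.7 TPM.

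Ribonucleotide reductase was represented by its large subunit and by the S phase small subunit at nearly equal levels, with the other small subunit far below. Rrm1 (ENSMUSG00000030978.9, chromosome 7, 102441695 to 102469771, plus strand) encodes the large subunit, which holds the catalytic site and the allosteric sites. It stood at 64.2 TPM in replicate 1 and 68.3 in replicate 2 (66.2 ± 2.86, n = 2), on 15394 and 15192 reads, the most reads of any gene in the set. Rrm2 (ENSMUSG00000020649.7, chromosome 12, 24708241 to 24714146, plus strand) encodes the small subunit that is made in S phase and degraded in mitosis. It stood at 72.5 and 75.2 TPM (73.8 ± 1.90, n = 2). Rrm2 was higher than Rrm1 in both libraries, with a log2 ratio of levels, Rrm1 over Rrm2, of -0.18 and -0.14. Of its 4 transcripts the full-length coding one (ENSMUST00000020980.7) took 91.4% and 96.2% of the TPM. Its retained-intron transcript took 5.13% and 1.81%, with credibility intervals of 3.08 to 4.34 TPM in replicate 1 and 0.986 to 1.77 in replicate 2 that do not overlap. Rrm1 has 1 transcript in the tables, and Gm45399, which the annotation places inside it, was not analysed here.

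Rrm2b (ENSMUSG00000022292.11, chromosome 15, 37923952 to 37961318, minus strand) encodes p53R2, a p53-induced small subunit known for supplying precursors outside S phase, for DNA repair and for mitochondrial DNA. It stood at 3.31 TPM in replicate 1 and 2.16 in replicate 2 (2.74 ± 0.813, n = 2), on 807 and 496 reads. That is the lowest level of the set in both libraries, and 8769 protein-coding nuclear genes were higher. The level of Rrm2 was 21.9 times that of Rrm2b in replicate 1 and 34.8 times in replicate 2, and the level of Rrm1 was 19.4 and 31.6 times that of Rrm2b. The direction was the same in both libraries, and the size of the gap was not the same.

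The quantifier's posterior mean put Rrm2b a little higher than the maximum likelihood value, at 3.97 and 2.59 TPM. The credibility interval of replicate 1 (3.25 to 4.74 TPM) lies above that of replicate 2 (2.14 to 3.07 TPM), so Rrm2b was lower in replicate 2 beyond the uncertainty of read assignment. A processed pseudogene, Gm3362, lies inside the gene on the same strand and was listed at 0.69 and 0.14 TPM (14.1 and 2.66 reads), few beside those assigned to Rrm2b. The antisense gene Gm49085 was not analysed here. Of the 8 Rrm2b transcripts, 1 coding transcript of 4561 bases (ENSMUST00000022901.11) led with 88.2% and 88.4% of the TPM, or 71.1% and 72.0% of the posterior mean.

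The start regions of Rrm1 and Rrm2 are printed because these subunits work in 1 complex and had levels within a log2 ratio of 0.18 of each other. Each line gives the 250 bases before the RefSeq start on GRCm38.p6, chr7:102441445-102441694 and chr12:24708004-24708253, plus strand. Capitals mark matches, on either strand, to CCAAT (the box bound by NF-Y), GGGCGG (a GC box) and ATGGCGGC, the last of which was chosen after the Rrm1 sequence had been seen. In Rrm1 the first CCAAT and ATGGCGGC stand next to each other.
Rrm1 promoter: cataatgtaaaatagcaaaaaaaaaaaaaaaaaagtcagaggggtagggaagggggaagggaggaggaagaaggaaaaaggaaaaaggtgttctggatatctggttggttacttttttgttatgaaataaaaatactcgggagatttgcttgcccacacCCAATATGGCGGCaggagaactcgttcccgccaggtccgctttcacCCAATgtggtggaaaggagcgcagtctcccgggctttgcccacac
Rrm2 promoter: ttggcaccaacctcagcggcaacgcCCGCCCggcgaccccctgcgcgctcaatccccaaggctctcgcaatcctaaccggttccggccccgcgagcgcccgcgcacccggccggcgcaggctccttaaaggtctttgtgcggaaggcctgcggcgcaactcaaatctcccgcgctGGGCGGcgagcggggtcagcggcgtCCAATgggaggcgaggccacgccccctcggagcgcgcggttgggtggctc
The Rrm1 stretch holds 2 CCAAT, 1 ATGGCGGC and 0 GGGCGG matches, and the Rrm2 stretch holds 1 CCAAT, 0 ATGGCGGC and 2 GGGCGG matches. RefSeq promoters were found for 8 of the 9 genes, all but Rrm2b. Over windows of 300 bases (250 before the start and 50 after it), CCAAT was in 4 of the 8 and in 37.4% of all 32851 promoters. GGGCGG was in 7 of the 8, all but Rrm1, and in 35.7% of all promoters. TATAAA was in 0 of the 8 and in 13.6% of all, and ATGGCGGC was in Rrm1 alone and in 2.24% of all. The E2F-type octamers TTTCCCGC, TTTCGCGC, TTTGCCGC and TTTGGCGC as a group were in 0 of the 8 and in 2.26% of all. At so low a share 0 of 8 says little about these genes, and near matches to the octamers were not counted. These are matches of letters in a fixed window and not bound sites.

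The thymidylate branch had a high total level of Tyms, but most of that level was assigned to transcripts annotated as not protein-coding. Tyms (ENSMUSG00000025747.8, chromosome 5, 30058202 to 30073617, minus strand) encodes thymidylate synthase, the enzyme of de novo dTMP synthesis and the target of 5-fluorouracil. Summed over 6 transcripts it stood at 72.4 TPM in replicate 1 and 76.8 in replicate 2 (74.6 ± 3.12, n = 2). Its only protein-coding transcript, Tyms-201, took 10.0 and 11.4 TPM of this (10.7 ± 1.01, n = 2), or 13.8% and 14.9%. Both libraries gave the same picture, 14.3 ± 0.754% (SD, n = 2).

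The leading Tyms transcript was Tyms-205, annotated as a target of nonsense-mediated decay, with 57.1% and 58.5% of the TPM of the gene. Next came Tyms-202, annotated as a retained intron, with 20.7% and 21.6%. By reads the order was another. Tyms-201 took 1879 of 4952 reads in replicate 1 and 1995 of 4928 in replicate 2, or 38.0% and 40.5%, the most of any Tyms transcript. The 2 measures part because Tyms-201 is 3163 bases long, with 921 coding bases and 2172 bases from the stop codon to its end, whereas Tyms-205 is 797 and Tyms-202 is 816 bases long, and TPM divides reads by length.

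Among the 9911 protein-coding nuclear genes at 1 TPM or more in both libraries, the median share of TPM on protein-coding transcripts was 97.7%. A share under 50% in both libraries was found in 9.60% of them, and 2.21% had a lower mean share than Tyms. When all reads of Tyms were divided by the length of Tyms-201, its level came to 27.3 TPM, between the 10.7 of the coding transcript and the 74.6 of the sum.

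Tyms-202 shares 577 of its 816 bases with Tyms-201 and follows its first exons as far as the fourth, then runs on into the next intron. The intronic bases are printed because they are what sets this model apart from the coding transcript (chr5:30063846-30064084, minus strand, 239 bases). Capitals mark the first 2 bases of the intron, where Tyms-201 is spliced, and the first stop codon in the reading frame of Tyms-201, at base 45 of the stretch, after 538 coding bases.
Tyms-202, intronic in Tyms-201: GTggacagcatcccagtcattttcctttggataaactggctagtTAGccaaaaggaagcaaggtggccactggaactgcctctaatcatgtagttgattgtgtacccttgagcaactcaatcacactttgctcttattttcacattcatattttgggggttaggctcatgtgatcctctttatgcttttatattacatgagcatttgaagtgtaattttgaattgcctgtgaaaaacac
The frame that makes thymidylate synthase therefore closes soon after the exon in this model. Tyms-205 has another length in the annotation used for positions and classes (618 bases), so its structure is not described. Whether its class of nonsense-mediated decay holds for the 797-base model that was counted was not tested. The low coding share of Tyms rests on that class. The pseudogene Tyms-ps on chromosome 10 was not analysed here.

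Shmt1 (ENSMUSG00000020534.10, chromosome 11, 60788104 to 60811718, minus strand) encodes cytosolic serine hydroxymethyltransferase, which loads folate with the one-carbon unit that Tyms uses. It stood at 17.4 TPM in replicate 1 and 16.4 in replicate 2 (16.9 ± 0.750, n = 2). Its mitochondrial counterpart Shmt2 was higher in both libraries, at 34.4 and 35.2 TPM, a log2 ratio of Shmt1 over Shmt2 of -0.98 and -1.11. Of the 11 Shmt1 transcripts 1 coding transcript (ENSMUST00000018744.10) led with 94.7% and 88.3% of the TPM. Smcr8, on the opposite strand and overlapping the 3' end of Shmt1 by 184 bases, stood at 14.9 and 13.1 TPM. Whether strand was used in counting is not known here, so reads of the overlap cannot be told apart. The small nucleolar RNA gene Gm24945 inside Shmt1 was listed at 0 in both libraries.

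The order of Tyms and Shmt1 depended on which transcripts were counted. Tyms was 4.16 and 4.70 times Shmt1 over all transcripts, and with protein-coding transcripts alone it was lower than Shmt1 in both libraries, at 0.606 and 0.792 times its level.

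**Figure D2:**
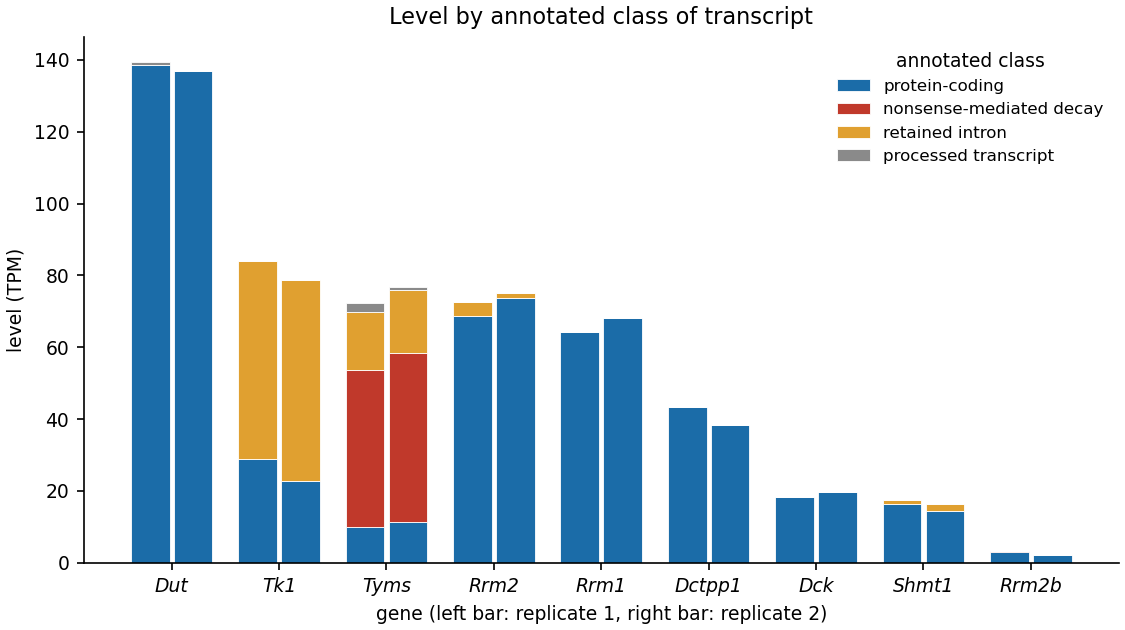
Level in TPM of each gene in replicate 1 (left bar) and replicate 2 (right bar), split by the annotated class of the transcripts that carry it. Protein-coding transcripts fill the bars of 7 genes almost wholly, while retained-intron transcripts fill most of the Tk1 bars and nonsense-mediated decay transcripts most of the Tyms bars.

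In salvage, the cytosolic thymidine kinase was high and the mitochondrial one low. Tk1 (ENSMUSG00000025574.9, chromosome 11, 117815526 to 117826092, minus strand) encodes the S phase thymidine kinase, which is degraded after mitosis. Summed over 7 transcripts it stood at 84.0 TPM in replicate 1 and 78.8 in replicate 2 (81.4 ± 3.69, n = 2). Tk2, the mitochondrial thymidine kinase, stood at 4.32 and 4.18 TPM, so that Tk1 was 19.4 and 18.8 times higher. With protein-coding transcripts alone Tk1 remained above Tk2 in both libraries, by 6.69 and 5.42 times.

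Tk1 had, like Tyms, most of its TPM on a transcript annotated as not coding. Its retained-intron transcript ENSMUST00000141939.1 took 51.2 and 52.9 TPM, 61.0% and 67.2% of the gene. The coding transcript took 28.9 and 22.6 TPM (25.8 ± 4.43, n = 2), or 34.4% and 28.8%. The credibility interval of the coding transcript ended at 23.6 TPM in replicate 2 and began at 27.0 TPM in replicate 1, so they do not overlap, while those of the retained-intron transcript do. By reads the coding transcript held 2337 of 4414 in replicate 1 and 1702 of 3659 in replicate 2. Of the 9911 genes above, 5.77% had a lower mean coding share of TPM than Tk1.

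The retained-intron transcript is 724 bases long, and 636 of them (87.9%) are also exon in the coding transcript, within its last 2 exons. What remains is a stretch of 88 bases at its 5' end (chr11:117816567-117816654, minus strand), printed because it is the sequence that tells the 2 models apart. The capitals mark the last 2 bases of the intron, after which both models run on as exon.
Tk1 retained-intron transcript, bases intronic in the coding one: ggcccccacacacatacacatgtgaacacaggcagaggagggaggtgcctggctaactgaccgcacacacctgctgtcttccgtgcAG
Because the models share most of their bases, the division of reads between them rests on these bases and on how reads lie along the coding transcript. How much of the level assigned to the retained-intron transcript is spliced, coding Tk1 RNA was not tested. All Tk1 reads divided by the length of the coding transcript gave 54.6 and 48.7 TPM. On the opposite strand Gm20708, which spans the whole gene, was listed at 1.01 and 0.91 TPM, and Afmid, which overlaps its 5' end by 169 bases, at 0.62 and 0.35.

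Dck (ENSMUSG00000029366.9, chromosome 5, 88764996 to 88783281, plus strand) encodes deoxycytidine kinase, which phosphorylates deoxycytidine and the purine deoxynucleosides and activates drugs such as cytarabine. It has 1 transcript in the tables and stood at 18.2 and 19.8 TPM (19.0 ± 1.12, n = 2). Tk1 was 4.62 and 3.98 times higher than Dck over all transcripts. With protein-coding transcripts alone Tk1 was 1.59 and 1.15 times Dck, still above it in both libraries. The mitochondrial deoxyguanosine kinase Dguok stood at 20.0 and 16.0 TPM, higher than Dck in replicate 1 and lower in replicate 2 over all transcripts. With protein-coding transcripts alone Dck was 1.16 and 1.36 times Dguok, and with all reads over the length of the main coding transcript 1.06 and 1.26 times, above it in both libraries.

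The hydrolases that keep uracil and modified bases out of DNA included the highest gene of the set. Dut (ENSMUSG00000027203.11, chromosome 2, 125247190 to 125258608, plus strand) encodes dUTPase, which splits dUTP and thereby supplies the dUMP that Tyms uses. It stood at 139 TPM in replicate 1 and 137 in replicate 2 (138 ± 1.82, n = 2), and 404 of the 21461 protein-coding nuclear genes had a higher mean. Dctpp1 (ENSMUSG00000042462.4, chromosome 7, 127256959 to 127260709, minus strand) encodes dCTP pyrophosphatase, which removes dCTP and its modified forms. It stood at 43.5 and 38.5 TPM (41.0 ± 3.55, n = 2), on 1452 and 1199 reads. Dut was 3.20 and 3.56 times Dctpp1. It was 1.92 and 1.78 times Tyms over all transcripts and 13.9 and 12.0 times with protein-coding transcripts alone.

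Dut came almost wholly from 2 protein-coding transcripts with different first exons, which in human DUT give a mitochondrial and a nuclear enzyme. Which mouse transcript gives which form was not tested. Dut-202 (1020 bases, 600 of them coding) took 114 and 120 TPM, 81.5% and 87.9% of the gene, and Dut-201 (1950 bases, 486 coding) took 24.9 and 16.5 TPM, 17.8% and 12.1%. The bases that are coding in one and not in the other are printed, since they hold the 2 start codons, marked by capitals (Dut-202, chr2:125247272-125247401, 130 bases; Dut-201, chr2:125247748-125247763, 16 bases; plus strand).
Dut-202 coding only: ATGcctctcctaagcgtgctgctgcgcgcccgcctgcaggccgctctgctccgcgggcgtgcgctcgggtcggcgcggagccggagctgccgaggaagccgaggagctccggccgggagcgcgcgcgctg
Dut-201 coding only: ATGccctgctcggaag
The share of Dut-201 was lower in replicate 2. Its credibility intervals, 22.9 to 26.1 TPM and 14.9 to 17.7 TPM, do not overlap. The models also differ at the 3' end, where Dut-201 has 1198 bases from its stop codon on and Dut-202 has 338, so a different start and a different end cannot be told apart in these shares.

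Ordered by mean TPM over all transcripts, the genes ran Dut, Tk1, Tyms, Rrm2, Rrm1, Dctpp1, Dck, Shmt1 and Rrm2b. Neighbours were taken as apart where the gap of their means was above the sum of their SDs and their credibility intervals overlapped in neither library. By this rule Tk1 and Tyms did not differ beyond their spread (gap 6.74 TPM), nor did Tyms and Rrm2 (gap 0.780 TPM), nor Dck and Shmt1 (gap 2.10 TPM). The other 5 neighbouring pairs did. With protein-coding transcripts alone the order was Dut (138 TPM), Rrm2 (71.3), Rrm1 (66.2), Dctpp1 (41.0), Tk1 (25.8), Dck (19.0), Shmt1 (15.5), Tyms (10.7) and Rrm2b (2.56). Rrm1, Dck and Dctpp1 have 1 transcript each and cannot move by this choice. Tk1 and Tyms were the genes of the set whose level it changed by more than 1.5 times.

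**Figure D3:**
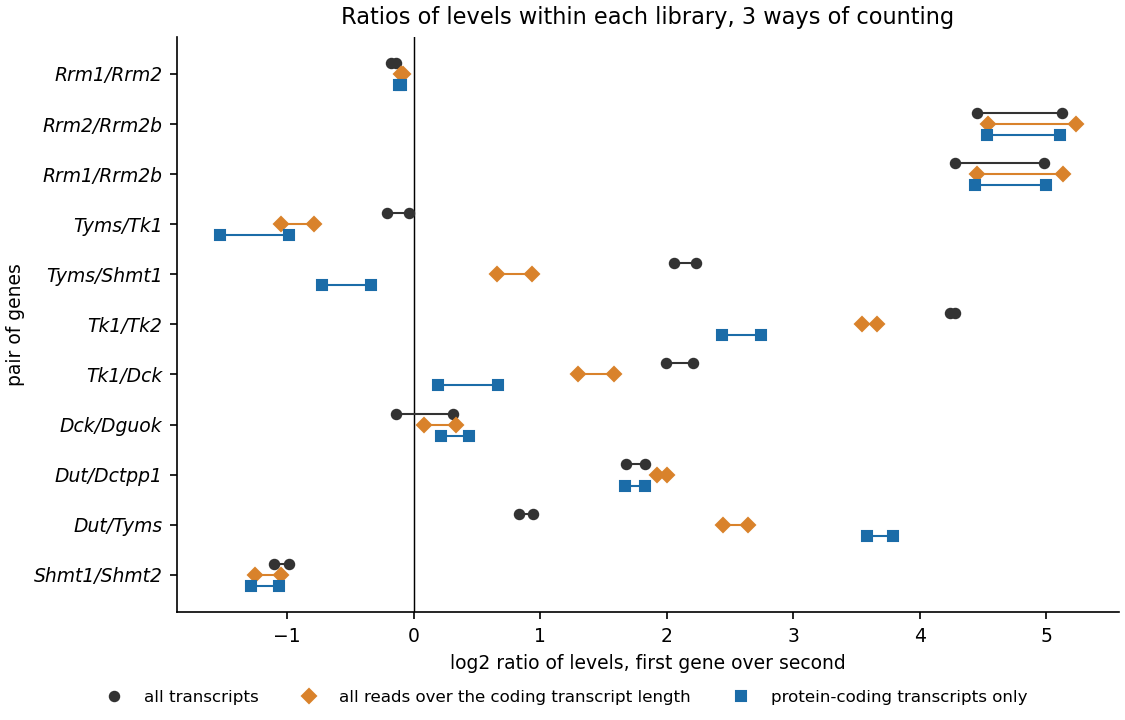
Log2 ratio of levels for 11 pairs of genes, first gene over second, with a point per library joined by a line. The ratios of Rrm1, Rrm2, Rrm2b and Shmt1 to their partners Rrm2, Rrm2b and Shmt2 lie close together over the 3 ways of counting, while each ratio with Tyms or Tk1 moves, and that of Tyms over Shmt1 crosses 0.

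No gene of the set was called between the 2 libraries when both an adjusted p under 0.05 and a difference of 1 log2 unit were asked for (exact binomial test on reads, Benjamini-Hochberg adjusted over 14304 genes), which called 7.66% of genes. By the adjusted p alone all 9 passed, as did 59.0% of all genes tested. The test compares 2 libraries and their counting error, not conditions. Rrm1, Rrm2, Tyms and Dck were higher in replicate 2, with log2 ratios of 0.13 to 0.16. Dut, Tk1, Dctpp1, Shmt1 and Rrm2b were lower in replicate 2. Rrm2b had the largest ratio, -0.55 (adjusted p = 8.34e-11, exact binomial test), and the others lay between -0.14 and -0.05. The median absolute log2 ratio of the 9 was 0.14. All genes tested had a median of 0.32 at 1 to 5 TPM, of 0.13 at 10 to 50 TPM and of 0.12 at 50 to 200 TPM, and 72.7% of genes at 1 to 5 TPM had a smaller ratio than Rrm2b.

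**Figure D4:**
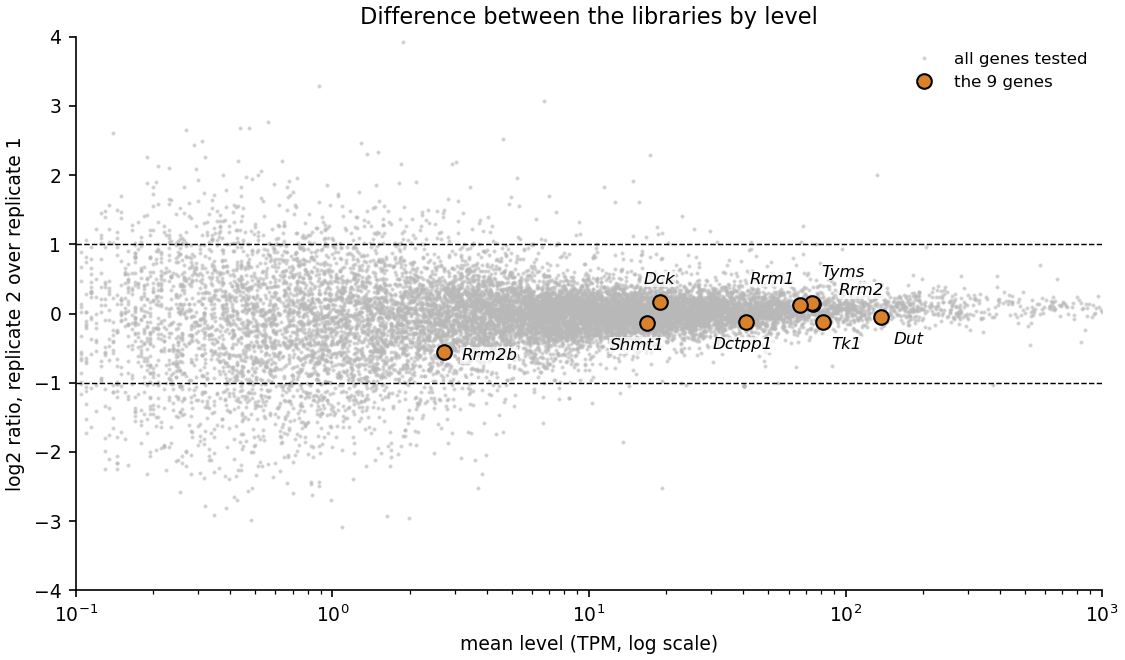
Log2 ratio of reads, replicate 2 over replicate 1, against the mean level in TPM on a log axis, for the 9 genes (orange) and for the genes tested (grey); genes outside the axes are not drawn. Dashed lines mark an absolute log2 ratio of 1, and all 9 genes lie between them, with Rrm2b lowest at -0.55.

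The genes around the 9 in the pathway were read from 8 lists. Of 52 genes found in the tables, 46 reached 1 TPM in both libraries (46.2% of protein-coding nuclear genes did), with a median of 17.5 TPM. Listed genes that failed the read filter, such as Tymp and Slc28a3, were not tested between the libraries. Of the 52, 1 was called higher in replicate 2 and 0 in replicate 1, where 7.66% of all 14304 genes tested were called. The one called was Bbc3, a p53-induced killer of the BCL2 family, with 11 and 74 reads.

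The reductants that return ribonucleotide reductase to its active form had a median of 129 TPM, with all 4 above 1 TPM in both libraries. Txn1 (thioredoxin) stood at 194 ± 25.7 TPM, Gsr (glutathione reductase) at 164 ± 14.1 and Txnrd1 (thioredoxin reductase) at 19.8 ± 2.01. The kinases that turn monophosphates and diphosphates into triphosphates had a median of 42.3 TPM, with 7 of 7 above 1 TPM. Nme2 (a nucleoside diphosphate kinase) stood at 229 ± 8.66 TPM, Dtymk (thymidylate kinase, the step after Tyms and Tk1) at 97.5 ± 1.34 and Nme4 (a mitochondrial nucleoside diphosphate kinase) at 18.5 ± 1.16. Over all transcripts Dtymk was thus above both enzymes that make its substrate in each library. It was not recounted with protein-coding transcripts alone.

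The folate and thymidylate cycle apart from Tyms and Shmt1 had 9 of 9 listed genes above 1 TPM in both libraries. Shmt2 led with 34.8 ± 0.559 TPM, followed by Mthfd1 (the cytosolic trifunctional folate enzyme) with 24.5 ± 3.37, and Mthfd2l was lowest with 2.19 ± 0.0636. Mitochondrial salvage and supply had a median of 11.1 TPM. Slc25a36, a mitochondrial pyrimidine nucleotide carrier, stood at 26.0 ± 0.926 TPM, Dguok at 18.0 ± 2.84 and Slc25a33, another such carrier, at 2.79 ± 1.06. Slc25a33 was the pathway gene whose levels lay nearest to Rrm2b in the 2 libraries, at a distance of 0.094 in log2(TPM + 1). Nearest to Rrm2 were Nme1 (0.271) and Cul1 (0.299), and the same genes were nearest to Tyms (0.261 and 0.292). With 2 libraries of 1 group this is a likeness of levels alone.

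Breakdown and sanitation genes had a median of 11.3 TPM, and 8 of the 10 found reached 1 TPM in both libraries. Samhd1, the dNTP hydrolase that opposes ribonucleotide reductase, stood at 38.1 ± 0.976 TPM and Nt5c, a deoxynucleotidase, at 26.7 ± 0.446. Tymp, the thymidine phosphorylase, was near 0 at 0.07 and 0.05 TPM (8.78 and 5.11 reads). Of the nucleoside transporters 4 of 5 reached 1 TPM, led by Slc28a2 with 26.7 ± 2.08 TPM and Slc29a1 (ENT1) with 22.9 ± 6.90, and Slc28a3 was listed at 0 in both.

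For the proteolysis of Rrm2 and Tk1, all 5 listed genes reached 1 TPM in both libraries. Skp1a and Cul1, shared parts of SCF ubiquitin ligases, stood at 111 ± 10.8 and 84.5 ± 5.36 TPM. Fzr1 (Cdh1), an activator of the anaphase-promoting complex that targets both proteins, stood at 8.21 ± 1.41. The p53 list, in which Rrm2b would belong as a target, had a median of 5.96 TPM with 5 of 8 above 1 TPM in both. Trp53 itself stood at 71.0 TPM in replicate 1 and 51.4 in replicate 2, Ccng1 (cyclin G1) at 37.6 and 33.9, and Bbc3 at 0.11 and 0.76. The list did not go one way between the libraries, and its median log2 ratio, replicate 2 over replicate 1, was 0.14. Trp53 itself was at -0.43 and its target Ccng1 at -0.11. The other listed targets were above 0, with Bbc3 at 2.68, Cdkn1a at 0.62, Sesn2 at 0.57 and Mdm2 at 0.20. Zmat3 at 0.07 and Bax at 0.007 were near 0. Cdkn1a, Sesn2, Mdm2, Zmat3 and Bax are outside the naming rule and were given after their values were seen.

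A list of 15 S phase genes had 15 of 15 above 1 TPM and a median of 36.1 TPM, with Pcna (332 ± 15.9 TPM), the sliding clamp of replication, and Mcm3 (271 ± 7.81 TPM), a helicase subunit, highest and Ccne1 (7.71 ± 0.898 TPM), cyclin E1, lowest. By level over all transcripts Dut, Tk1, Tyms, Rrm2, Rrm1 and Dctpp1 thus lay above the median of these genes. Dck and Shmt1 lay below that median and Rrm2b below the lowest gene. With protein-coding transcripts alone Tk1 stood at 25.8 TPM and Tyms at 10.7, and the S phase list was not recounted in that way.

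**Figure D5:**
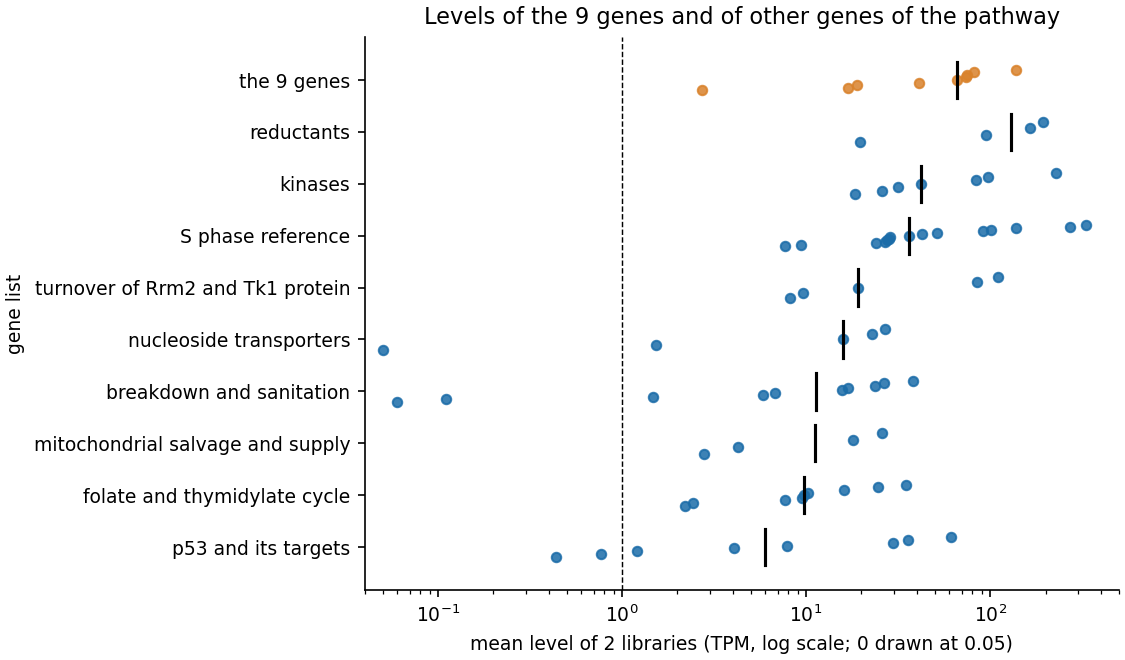
Mean TPM over 2 libraries, on a log axis, of the 9 genes (orange) and of the genes of each pathway list (blue), with a bar at each median and a dashed line at 1 TPM. Counted over all transcripts, the median of the 9 genes, 66.2 TPM, lies below that of the reductants, 129 TPM, and above those of the other lists. With protein-coding transcripts alone the median of the 9 was 25.8 TPM, and the lists were not recounted in that way.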

How the data were processed

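Total RNA-seq of 2 libraries of 1 group was used. Per the labels reads were mapped to mm10, and per the deposited file lists they were quantified against GENCODE M4. The aligner, the version of the quantifier, the read layout and strand use were not given in the sources used here. The column names are RSEM's, per the file headers. The authors' expected counts are reads estimated for each gene or transcript, their TPM values are abundances per length scaled to a fixed total, the deposited percent values give each transcript's part of its gene's TPM, and the authors' score columns are bounds of a credibility interval of unstated level around the posterior mean, so a TPM can lie outside them. With a fixed total, abundant non-coding RNA lowers all other TPM values.

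Symbols and transcript classes came from GENCODE M21 on GRCm38, which matched 42462 of 43346 Ensembl rows; 40 of the 42 transcripts of the 9 genes had the same length there. Expected counts were rounded, scaled with TMM (edgeR 4.0.16 in R 4.3.3), filtered with filterByExpr at a count of 10 and compared by an exact two-sided binomial test of replicate 2 against replicate 1, with code tested on simulated data. The log2 ratios used a prior count of 2, and a call needed an adjusted p under 0.05 together with a ratio of at least 1 log2 unit.

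The 9 genes, the lists and the alternatives were chosen with earlier results of these data known. Named genes were the 9, every gene of a pair, the 2 highest and the lowest of each list, genes that overlap the 9 or are pseudogenes of them, and the nearest genes in level to Rrm2, Tyms and Rrm2b. Of 53 listed pathway genes Pnp had no match, and results for a few other listed genes are not reported here.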

Additional observations from a re-analysis of the deposited data

How the results depend on the processing

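The median level of the 9 genes, 66.2 TPM, was 25.8 TPM with protein-coding transcripts alone, 41.0 TPM when all reads of a gene were divided by the length of its main coding transcript, an alternative chosen after seeing the data, and 164 TPM when TPM was rescaled to protein-coding nuclear genes, which leaves the order as it is. With protein-coding transcripts alone the log2 ratio of Tyms over Shmt1 reversed from 2.14 to -0.53, and other ratios moved: Tyms over Tk1 from -0.12 to -1.26, Tk1 over Tk2 from 4.26 to 2.59, Tk1 over Dck from 2.10 to 0.43, Dut over Tyms from 0.89 to 3.69, Rrm1 over Rrm2 from -0.16 to -0.11 and Shmt1 over Shmt2 from -1.04 to -1.17. With all reads over the coding length the same ratios, in that order, were 0.80, -0.92, 3.60, 1.44, 2.55, -0.093 and -1.15, and Dut over Dctpp1 went from 1.75 to 1.96. Posterior means moved the share of Rrm2b-201 from 88.3% to 71.5%. The ratio of Dck over Dguok was -0.14 and 0.31 in single libraries. Genes called between the libraries numbered 1096, and 3382 without the filter (fewer reads per gene, more genes tested), 321 with counts divided by 4 and 8446 by the adjusted p alone; members called stayed at 0 except by the adjusted p alone, with 9, of which 3 passed with counts divided by 4 and 7 without the filter. No paired analysis was possible because the samples form 1 group. Depth limits Rrm2b and Dctpp1 most, the genes with the fewest reads.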
